A study of Mus musculus with 16 samples.

Results

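The comparison described here sets mouse embryonic stem (ES) cells that received the activator construct Ptn(TALE)VP64 against the cells of every other construct in the study taken as 1 group. The 4 arrays titled for VP64 formed one side, and the 12 arrays titled for EGFP, Ptn DEL and Ptn Delta formed the other, so all 16 arrays of the study were used. A probe counted as different only if it passed the test and the VP64 mean lay on the same side of the EGFP mean, the DEL mean and the Delta mean. All cells were of the E14 ES line cultured in serum medium to which LIF, a cytokine that blocks differentiation, had been added. All were transfected with plasmid by Lipofectamine, sorted for eGFP fluorescence after 24 h and harvested at 48 h. eGFP is a fluorescent protein and carries no DNA-binding domain. The other 3 plasmids encode a TALE, a designed DNA-binding protein, named for the gene Ptn, joined to VP64 in one and to DEL in another; the labels do not say what the third, Delta, carries. Expression was transient and only sorted cells were measured, which limits all groups as models alike.

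Pleiotrophin, the product of Ptn, is a secreted growth factor that binds heparin and acts through cell-surface receptors and proteoglycans. VP64 is built of repeats of the activation motif of the viral protein VP16, which binds Mediator and acetyltransferases and so draws RNA polymerase to a promoter. DEL is a short acidic peptide known for unfolding chromatin with little activation of transcription. Pooling the 3 other constructs asks what was seen with the activator that was seen neither with fluorescent protein nor with the other TALE fusions.

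The start regions of Ptn and Il33 are shown because they belong to the targeted gene and to the gene with the smallest p. Each is the stretch from 250 bases before to 50 bases after an annotated start in RefSeq (GRCm38.p6), written 5′ to 3′ along the gene's own strand. Capitals mark the letters TATAAA and CCAAT on either strand (TTTATA and ATTGG in reverse). The Ptn stretch is chr6:36810130-36810429 on the minus strand, and the Il33 stretches are chr19:29924863-29925162 and chr19:29945540-29945839 on the plus strand.
Ptn: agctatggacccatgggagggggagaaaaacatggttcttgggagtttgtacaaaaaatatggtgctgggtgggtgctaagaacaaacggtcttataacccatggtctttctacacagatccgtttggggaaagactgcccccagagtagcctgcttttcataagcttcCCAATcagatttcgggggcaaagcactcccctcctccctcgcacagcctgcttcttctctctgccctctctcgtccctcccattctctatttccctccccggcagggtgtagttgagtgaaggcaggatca
Il33, first start: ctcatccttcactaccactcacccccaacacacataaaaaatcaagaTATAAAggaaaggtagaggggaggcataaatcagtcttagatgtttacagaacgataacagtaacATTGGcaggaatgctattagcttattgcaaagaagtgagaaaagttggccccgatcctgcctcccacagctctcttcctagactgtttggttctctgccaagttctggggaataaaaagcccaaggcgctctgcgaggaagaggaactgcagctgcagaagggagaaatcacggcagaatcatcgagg
Il33, second start: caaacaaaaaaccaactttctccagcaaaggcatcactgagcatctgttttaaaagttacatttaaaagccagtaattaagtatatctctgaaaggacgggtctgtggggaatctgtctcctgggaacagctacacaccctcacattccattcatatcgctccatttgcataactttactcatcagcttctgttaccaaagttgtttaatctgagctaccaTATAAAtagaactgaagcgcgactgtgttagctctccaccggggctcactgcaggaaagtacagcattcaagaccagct
The Ptn stretch held 1 CCAAT and no TATAAA. The first Il33 stretch held 1 of each, and the second held 1 TATAAA. Among 32851 such stretches of the same length in the RefSeq table, 13.6% held TATAAA and 37.4% held CCAAT on either strand. The arrays do not tell which start a transcript used, and the site that the TALE was designed for is not marked because its sequence was not used here.

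Signal and surface quality differed between arrays. The signal at the 75th percentile of an array lay between 209.3 units in EGFP replicate 2 and 1253 in VP64 replicate 1, and between 27.1 and 43.8% of the spots were well above background. Between 1.34 and 40.5% of the spots of an array lay in dim or bright patches and were left out. EGFP replicate 2 and VP64 replicate 2 stood apart, with a median correlation with the other arrays of 0.854 and 0.871, against at least 0.906 for the rest. All 8 ES cell markers, among them Pou5f1, Sox2 and Nanog, were well above background on every array. VP64 replicate 1 had a Pou5f1 log2 level of 2.69, whereas the other VP64 arrays measured were at 6.19 and 6.54 and the pooled arrays lay between 6.06 and 7.52. Levels throughout are log2 of the signal over the array's own 75th percentile, corrected for patches. Each construct sat in a fixed column of both slides, so position and construct cannot be told apart. The 4 hybridisations of a construct are 2 biological and 2 technical repeats in an order the labels do not give. The main test therefore averaged them in pairs, 2 averages a group, in all 3 ways that pairs can be formed, and kept the largest p. P-values thus rest on the spread between these few samples.

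Of 15026 probes tested, 1 passed the main test, a probe for Il33 that was higher with VP64 (limma, largest p of 3 pairings, Benjamini-Hochberg adjusted p under 0.05). That is 0.00666% of the probes, and none passed in the lower direction. At an unadjusted p under 0.05, 302 probes (2.01%) were higher and 689 (4.59%) were lower on the same side of all 3 groups. A second fit kept the 16 arrays apart with the slide as a term. Because repeat hybridisations of one sample enter it as if independent, its p-values understate the error, and it is used here only to describe. It passed 122 probes (0.812%), 55 higher (0.366%) and 67 lower (0.446%), that also had an unadjusted p under 0.05 in all 3 pairings. They covered 45 named genes higher and 41 lower, and 33 probes had no gene name. Without VP64 replicate 3 the unaveraged fit passed only 8 probes, and without VP64 replicate 1 only 12. Of the 122 probes, 103 had every VP64 value beyond every pooled value. Over all probes tested, 111 (0.739%) had all VP64 values above all pooled values and 227 (1.51%) had them below.

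**Figure D1:**
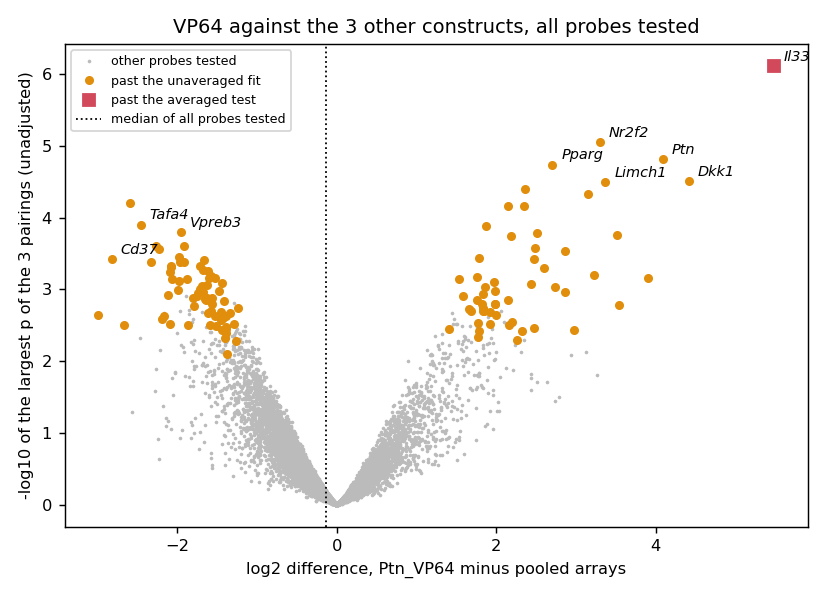
Each point is 1 of 15026 probes, with the log2 difference of VP64 from the pooled arrays on the x axis and −log10 of the largest unadjusted p of the 3 pairings on the y axis. The square is Il33 at 5.49, the orange points are the probes past the unaveraged fit, and the dotted line is the median of all probes at -0.14.

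How many probes passed as lower depended on the scaling of the arrays. With the 75th percentile, the median difference over all probes was -0.14, and the unaveraged fit passed 55 probes higher and 67 lower as given above. With quantile normalization the median was 0.16, and the unaveraged fit passed 99 probes higher and 4 lower. With normexp background correction the median was 0.003, with 28 probes higher and 1 lower. Without patch correction it passed 6 higher and 1 lower, and with the value table the authors deposited 11 higher and 2 lower. Small differences below are therefore to be read against the median of -0.11 over the 8518 named genes tested. Of these genes, 2982 had a positive and 5536 a negative difference.

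**Figure D2:**
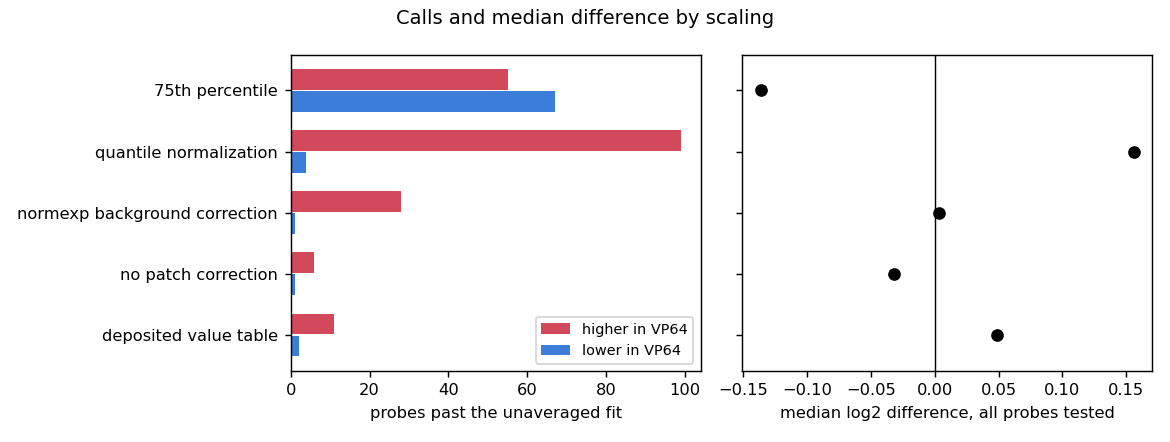
Bars on the left count the probes past the unaveraged fit that were higher or lower with VP64 under 5 scalings, and points on the right give the median log2 difference over all probes tested. With the 75th percentile 55 were higher and 67 lower, and with quantile normalization 99 and 4.

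Il33 codes for interleukin-33, a cytokine of the IL-1 family that is stored in the nucleus and released from damaged cells. Its log2 level was 2.11, 2.54 and 2.68 on VP64 replicates 1, 3 and 4, and the spot of replicate 2 was left out. The 12 pooled arrays ran from -4.31 through a median of -2.91 to -1.87. No VP64 value came within 3 log2 units of a pooled value. VP64 exceeded the pooled arrays by 5.49 ± 0.50 (SE; adjusted p = 0.0116). Il33 was well above background on 4 of the 12 pooled arrays, so the size of the difference rests partly on values at background. Among the pooled groups the mean level was -3.95 ± 0.36 (SD, n = 4) in EGFP, -2.98 ± 0.39 (n = 4) in DEL and -2.45 ± 0.50 (n = 4) in Delta. VP64 lay 6.31 ± 0.40 above EGFP (adjusted p = 0.00757), 5.34 ± 0.40 above DEL (adjusted p = 0.0254) and 4.81 ± 0.40 above Delta (adjusted p = 0.0538). The last value missed the threshold, so Il33 did not pass against each group alone. The adjusted p against the pool was 0.151 without VP64 replicate 1, 0.0865 without patch correction, 0.0957 without the filter on low signal, 0.0503 with marked spots kept and 0.215 in the deposited value table, while the difference stayed between 4.63 and 5.94 over all alternatives run. With marked spots kept the 1 probe that passed was one for Nnmt, a methyltransferase of nicotinamide (4.97 ± 0.42; adjusted p = 0.0206), which was not tested with marked spots left out.

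Ptn, the gene the TALE is named for, was at 2.70, 2.63 and 3.32 on VP64 replicates 2, 3 and 4. The 8 pooled arrays measured lay between -2.55 and 0.42 with a median of -0.78. The groups did not overlap. The difference was 4.09 ± 0.54 (SE), a 17.0-fold difference, with an adjusted p of 0.0683, which missed the threshold. An exact 2-sided permutation test over the averaged samples gave p = 0.0357, 0.0476 and 0.0357 in the 3 pairings, each the smallest value that its 28, 21 and 28 splits allow. With groups that do not overlap the test can give no other value, so it adds nothing to that. The group means were -1.61 ± 1.08 (SD, n = 2) in EGFP, -1.02 ± 1.35 (n = 3) in DEL and -0.71 ± 1.12 (n = 3) in Delta. VP64 lay 4.64 ± 0.81 (SE) above EGFP, 4.22 ± 0.66 above DEL and 3.67 ± 0.66 above Delta. None of these 3 differences passed the test on its own (adjusted p = 0.288, 0.444 and 0.771), and the 3 pooled groups did not differ by more than their spread (unadjusted p = 0.488). Another Ptn probe was measured on 1 VP64 array, at 3.41, and averaged -0.58 ± 0.95 (SD, n = 11) on the pooled arrays. With marked spots kept, that probe averaged 3.03 ± 0.44 (SD, n = 3) with VP64.

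Other genes at the top of the list code for nuclear receptors and a Wnt inhibitor. Nr2f2, the orphan receptor COUP-TFII, was at -0.10, -1.44, 0.31 and -1.44 on the VP64 arrays and between -4.87 and -2.91 on the 11 pooled arrays measured. It was well above background on all 4 VP64 arrays and on none of the 12 pooled arrays, and was at least 5.95-fold higher with VP64 (adjusted p = 0.0665). Such a bound sets the mean of the brighter group against the mean of the other. In the other group, values under the array's lowest signal that counted as well above background are raised to it. Pparg, a nuclear receptor that drives fat cell formation, was at -0.61, -1.01, -0.03 and -0.69 with VP64. The pooled arrays ran from -4.18 to -2.03 with a median of -3.28, and the difference was 2.71 ± 0.35 (SE; adjusted p = 0.0683). Dkk1, a secreted inhibitor of Wnt signalling, was at 1.08, 2.28 and 0.64 on VP64 replicates 1, 3 and 4 and between -4.30 and -0.80 on 10 pooled arrays. Its difference was 4.41 ± 0.67 (adjusted p = 0.0797). None of these 3 genes passed the main test, and none of their VP64 values overlapped a pooled value. In a list of retinoid, xenobiotic and nuclear receptor genes, 14 were tested, and 6 had a positive and 8 a negative difference. The list's median was -0.11, beside -0.11 over all named genes. At an unadjusted p under 0.05, 2 of the list were higher and 2 lower, against 2.57 and 4.16% of all named genes.

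**Figure D3:**
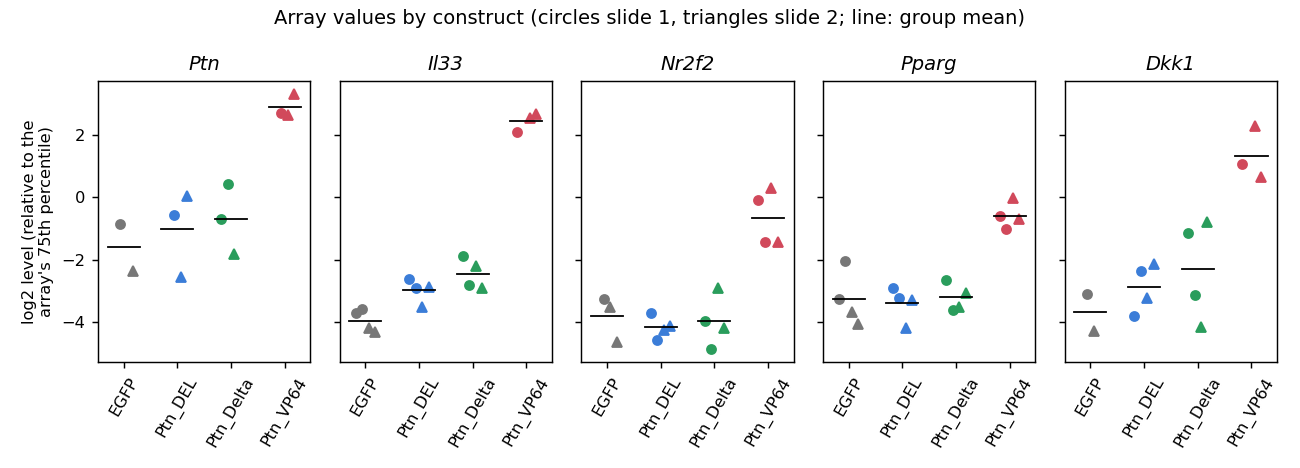
Log2 levels of Ptn, Il33, Nr2f2, Pparg and Dkk1 on each array that measured them, by construct, with circles for slide 1, triangles for slide 2 and a line at the group mean. The VP64 values lie above every EGFP, DEL and Delta value in all 5 panels, from 2.11 to 2.68 for Il33 against -1.87 at most elsewhere.

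The 15 largest rises among named genes in the unaveraged fit included 10 more, chosen by a rule written after their values had been seen. In all 15 every VP64 value lay above every pooled value, against 0.739% of all probes tested. Since they were picked as the largest rises on these same arrays, this separation is no added support. A probe could also pass the filter on signal through the 4 VP64 arrays alone, as Nr2f2 did. Fhl2, a LIM-domain cofactor, averaged 2.35 ± 0.42 (SD, n = 3) with VP64 and -1.16 ± 1.31 (n = 9) in the pool. The DEL arrays had Fhl2 at 0.46 and 0.16 on replicates 1 and 3 and at -1.52 and -1.36 on replicates 2 and 4. VP64 replicate 2 was not measured for Fhl2. Limch1, which binds myosin, averaged -0.21 ± 0.69 (n = 4) against -3.48 ± 0.69 (n = 11), and its second probe differed by 2.12 ± 0.54 (SE) and missed the unaveraged fit's threshold (adjusted p = 0.0545). Gsn, the actin-severing protein gelsolin, averaged 1.78 ± 1.04 (n = 3) against -1.50 ± 1.35 (n = 12). On DEL, Gsn was at 0.40 and 0.28 on replicates 1 and 3 and at -2.07 and -2.36 on replicates 2 and 4. VP64 replicate 2 was not measured for it. Cryab, a small heat shock protein, averaged 2.30 ± 1.03 (n = 3) against -0.55 ± 1.04 (n = 10). A second probe passed the same fit for Cryab, at 2.33 ± 0.64 (SE), and for Pmp22, a membrane protein of myelin, at 3.90 ± 0.85. Pmp22 averaged 2.73 ± 1.01 (SD, n = 3) against -0.59 ± 1.14 (n = 9) on its first probe. Krt20, an intermediate filament protein of epithelia, averaged -0.33 ± 0.99 (n = 3) against -3.37 ± 1.18 (n = 8). On replicates 3 and 4 it was at 0.39 and -1.46 with VP64, -2.70 and -4.64 with DEL and -2.18 and -4.37 with Delta. VP64 replicate 2 was not measured for Krt20.

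The remaining 4 were Ak5, an adenylate kinase, Wnt7b, a Wnt ligand, Igf2os, the antisense RNA of Igf2, and Tinagl1, a secreted matrix protein. Ak5 stood at -0.05, -1.0, 0.36 and -0.29 on the VP64 arrays and at -1.57 at most in the pool. Wnt7b was at 0.28, 0.17 and -0.23 on VP64 replicates 1, 3 and 4 and averaged -2.73 ± 1.07 (SD, n = 10) in the pool. Igf2os was at 0.41, 0.30 and -1.13 on the same 3 arrays against -2.88 ± 0.91 (n = 11). Tinagl1 was at -0.14, 0.03 and -1.27 against -3.07 ± 1.11 (n = 9). VP64 replicate 4 was the lowest of the VP64 arrays in these last 3 genes. The averaged test gave these 10 genes adjusted p-values of 0.0797 for Limch1, 0.158 for Ak5 and more for the others, up to 0.396 for Tinagl1.

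**Figure D4:**
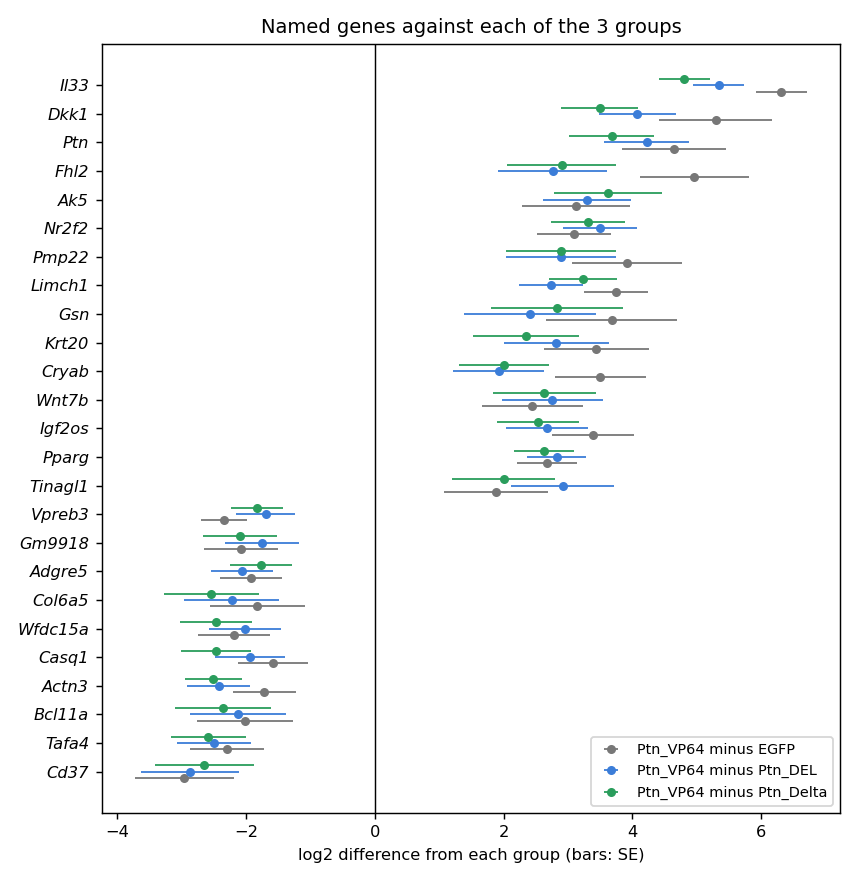
For 25 named genes, the log2 difference of VP64 from EGFP, from DEL and from Delta is plotted with its SE on the x axis. The rule for naming the genes requires all 3 differences to lie on the same side of 0, and for Il33 they are 6.31, 5.34 and 4.81.

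Over all probes, 0 differed among EGFP, DEL and Delta after adjustment (limma), and 423 of 15026 had an unadjusted p under 0.05. Among the latter were Il33 (unadjusted p = 0.0170) and Fhl2 (0.0493). Fhl2 lay 4.96 ± 0.85 (SE) above EGFP, 2.76 ± 0.85 above DEL and 2.90 ± 0.85 above Delta. Taken one by one, VP64 differed from EGFP in 1 probe, from DEL in 1 and from Delta in 0 in the averaged test, and 0 passed all 3. At an unadjusted p under 0.05, 207 probes passed all 3 on one side. These comparisons share the VP64 arrays. The unaveraged fit passed 91 probes against EGFP, 8 against DEL, 8 against Delta and 6 against all 3.

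No named gene passed as lower in the main test. The 5 with the smallest p were Tafa4, Vpreb3, Actn3, Wfdc15a and Cd37, with adjusted p from 0.153 to 0.210. Vpreb3, a component of the pre-B-cell receptor, was at -2.98, -2.05, -2.60 and -2.08 on the VP64 arrays and between -1.32 and 0.20 on the pooled arrays, a difference of -1.96 ± 0.33 (SE). Actn3, an actinin of fast muscle, was at -3.17, -1.11, -1.29 and -0.57 with VP64 and between -0.21 and 1.37 in the pool. Both were lower in every VP64 array than in any pooled array. Tafa4, a chemokine-like secreted protein, was not well above background on any VP64 array and was at least 3.32-fold lower (adjusted p = 0.153). Wfdc15a, a WAP-domain protein, was likewise not well above background with VP64 and at least 2.65-fold lower (adjusted p = 0.195), with 1 pooled array at -3.83 inside the VP64 range. Cd37, a tetraspanin of leukocytes, averaged -3.40 ± 1.13 (SD, n = 4) with VP64 and -0.73 ± 0.75 (n = 10) in the pool.

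The 10 largest falls in the unaveraged fit held these 5 and Bcl11a, Casq1, Col6a5, Adgre5 and Gm9918. Bcl11a, a zinc-finger repressor, averaged -3.08 ± 0.89 (SD, n = 4) against -0.79 ± 0.87 (n = 10), and a second probe had -1.27 ± 0.64 (SE) without passing. A second Col6a5 probe, well above background on 1 array and not tested, averaged 0.50 higher with VP64. Adgre5, an adhesion receptor, was the best expressed, at 1.48, 0.68 and 1.63 on VP64 replicates 1 to 3 and between 2.61 and 3.95 in the pool. In 8 of the 10 genes every VP64 value lay below every pooled value, against 1.51% of all probes tested. These genes too were picked by size on the same arrays. Their fitted differences ran from -2.83 to -1.92 with the 75th percentile and from -2.24 to -0.70 with quantile normalization, all 10 negative under both. The 15 rises ran from 2.26 to 5.49 and from 2.41 to 5.74. Of the 10 falls, 1 still passed the unaveraged fit with quantile normalization and 8 with marked spots kept. None of the falls did with normexp, without patch correction or in the deposited value table. Of the 15 rises, 11 still passed with quantile normalization, 9 with normexp and 8 with marked spots kept. Without patch correction 4 rises did, and 5 did in the deposited values.

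Among 2610 tested probes to intervals without a gene name, 183 were lower, against 4.59% of all probes, and 15 were higher, against 2.01%, at an unadjusted p under 0.05, with a median difference of -0.26. These probes come from noncoding transcripts of the array design, placed on mm9. Each of 3 intervals had its 3 tested probes past the unaveraged fit in the lower direction. They were chr15:102100397-102105872, with differences from -2.99 to -2.08, chr6:52046805-52072744, with -2.59 to -1.53, and chr5:123440192-123451767, with -1.97 to -1.44. Probes of 1 interval share a transcript and are not independent. Of these 9 probes, 5 also passed with marked spots kept, 1 with normexp, and 0 with quantile normalization, without patch correction and in the deposited table.

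Genes that mark trophoblast, the outer lineage of the blastocyst that ES cells do not normally form, had positive differences. Of 22 genes in that list 12 were tested, and all 12 had a positive difference, with a median of 1.69 beside -0.11 over all named genes. Of the 12, 11 had one with normexp, without patch correction and in the deposited table, and with normexp the median was 0.78. At an unadjusted p under 0.05, 6 were higher, against 2.57% of all named genes, and none passed the main test. Gata3, a trophoblast transcription factor, was at -0.14, 2.15 and 0.38 on VP64 replicates 2, 3 and 4 and at -0.63 at most in the pool, a difference of 2.44 ± 0.51 (SE; adjusted p = 0.249), and it passed the unaveraged fit. Gata2, its relative, was at -0.16, -0.99, -0.81 and -1.47 with VP64 and between -4.29 and -1.34 in the pool (1.76 ± 0.46; adjusted p = 0.348). Krt8 and Krt18, the keratin pair of simple epithelia, differed by 2.44 ± 0.94 and 2.43 ± 0.85. Krt18 was at 4.97, 6.37 and 5.00 on VP64 replicates 1, 3 and 4, and the pooled arrays ranged widely from -0.19 to 4.90. DEL and Delta were at 4.65 and 4.90 on replicate 3 but at 2.60 and 3.11 on replicate 4. Eomes differed by 0.05 ± 0.41 and Tfap2a by 0.17 ± 0.35, and Elf5 was not well above background on any array. Of 8 trophoblast markers, 6 had a higher mean with VP64. The 2 with a lower mean were Cdx2, at -1.72 on 2 VP64 arrays against -1.49, and Eomes, at -1.16 against -1.12, before slides are accounted for. The markers' summed log2 level, over all spots without patch correction, was 4.43 to 7.38 on VP64 arrays and 1.88 to 5.85 on pooled arrays. These ranges overlapped. Krt8 and Krt18 weigh most in the sum, with VP64 means of 4.59 and 5.45, and Tfap2c followed at 2.44. In a bulk sample, more cells of a type and more RNA per cell cannot be told apart, and the part of cell mixture in these differences was not tested.

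Epithelial and contractile genes also had mostly positive differences, whereas of all 8518 named genes tested 2982 had a positive and 5536 a negative one. None of these epithelial and contractile genes passed the main test. Of 16 simple-epithelium genes tested, 14 had a positive difference (median 0.87), 3 at an unadjusted p under 0.05, against 2.57% of all named genes. Of the 16, 3, the keratins Krt8, Krt18 and Krt19, also stand in the trophoblast list. Cdh1, the adhesion protein E-cadherin that ES cells express, differed by 0.17 ± 0.32. Of 13 genes driven by YAP or SRF, factors that respond to cell shape and actin, 11 had a positive difference (median 0.95), 5 at an unadjusted p under 0.05. Thbs1, the matrix protein thrombospondin, was at 2.93, 3.42 and 2.05 on VP64 replicates 1, 3 and 4 and between -3.02 and 1.45 in the pool (3.13 ± 0.97; adjusted p = 0.418). On DEL, Thbs1 was at 1.33 and 1.26 on replicates 1 and 3 and at -1.21 and -1.14 on replicates 2 and 4. Replicates 1 and 3 lay in row 2 of their slides, and replicates 2 and 4 in row 1. Acta2, smooth muscle actin, differed by 2.79 ± 1.14 and Srf itself by -0.02 ± 0.44. Among 7 fibroblast matrix genes, 5 had a positive difference (median 1.07). Col1a1, a collagen chain, was at 1.27, 2.01 and -0.08 on VP64 replicates 1, 3 and 4 and at -0.37 at most in the pool (2.93 ± 0.92; adjusted p = 0.434), whereas Thy1 differed by -0.79 ± 0.46. Col1a1 split in the same way on DEL, at -0.59 and -0.37 on replicates 1 and 3 and at -4.04 and -3.81 on replicates 2 and 4. VP64 replicate 2 was not measured for Thbs1, Col1a1 or Krt18, and the cause of the split was not tested. The fibroblast markers Postn and Pdgfrb were not well above background on any array. Adhesion genes had 11 of 14 positive (median 0.39) and immediate early genes 9 of 12 (median 0.45). In the latter Fosl2, an AP-1 subunit, differed by 2.23 ± 0.66 and Egr1 by -1.30 ± 0.39.

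**Figure D5:**
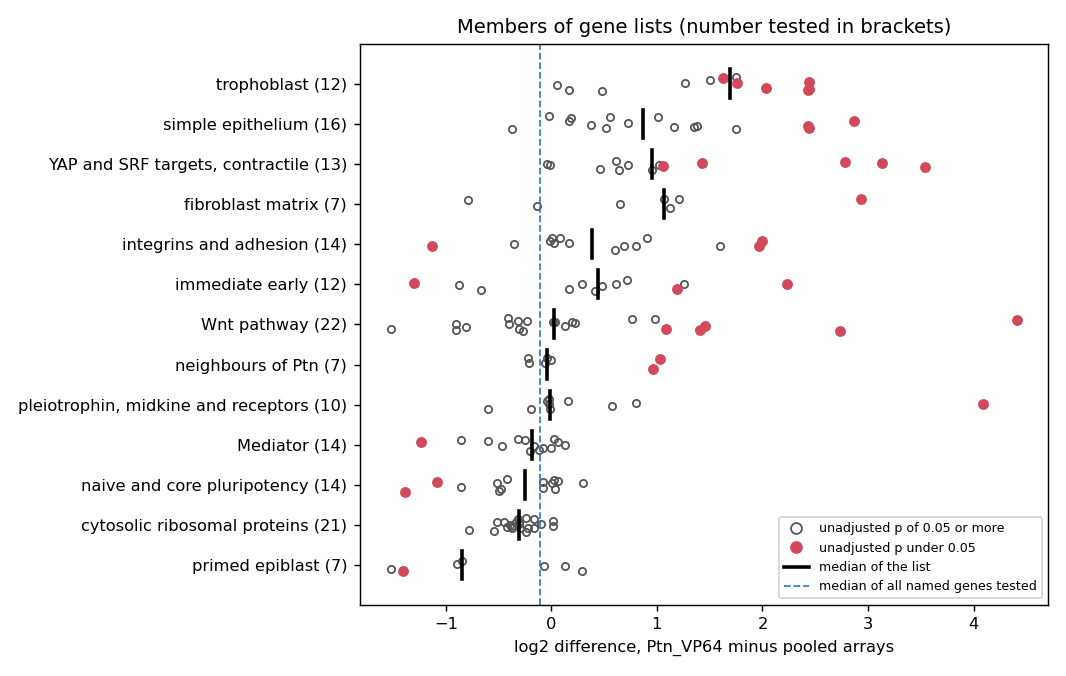
Each circle is a tested member of a gene list, placed by its log2 difference between VP64 and the pooled arrays, filled where the unadjusted p is under 0.05, with a bar at the list's median. The dashed line is the median of all named genes at -0.11, and the trophoblast median lies at 1.69.

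The Wnt list was divided. Of 22 genes tested, 12 had a positive and 10 a negative difference (median 0.03), with 5 higher and 0 lower at an unadjusted p under 0.05, against 2.57 and 4.16% of all named genes. The 5 were Dkk1, Wnt7b, its fellow ligand Wnt6 (1.41 ± 0.42), Kremen1 (1.45 ± 0.36), which binds Dkk1, and the receptor Fzd2 (1.09 ± 0.44). Axin2, a feedback target of the pathway, differed by 0.22 ± 0.89 and Ctnnb1, which codes for beta-catenin, by 0.01 ± 0.32. Lef1, a transcription factor of the pathway, differed by -1.52 ± 0.72.

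Of the 10 protein-coding genes on each side of Ptn, 7 were tested. At an unadjusted p under 0.05, 2 were higher, against 2.57% of all named genes, and none passed the main test. Atp6v0a4, a proton pump subunit, was at -1.61, -1.24, -1.07 and -1.13 with VP64 and between -3.18 and -1.22 in the pool (1.03 ± 0.40; unadjusted p = 0.0258, adjusted p = 0.650). Creb3l2, a transcription factor, differed by 0.96 ± 0.41 (unadjusted p = 0.0393, adjusted p = 0.722), and the other 5 lay between -0.22 and -0.0044. With quantile normalization all 7 were above 0, with a median of 0.66 beside 0.20 over all named genes. The median was -0.04 with the 75th percentile, 0.14 with normexp, 0.64 without patch correction and 0.67 in the deposited table. Among the 9 tested relatives, receptors and carriers of pleiotrophin other than Ptn, none had an unadjusted p under 0.05. Ptprz1, a receptor phosphatase for pleiotrophin, differed by -0.02 ± 0.42 and the proteoglycan Sdc2 by 0.57 ± 0.37.

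Of 14 pluripotency genes tested, 9 had a negative difference (median -0.25), a share like that of all named genes (5536 of 8518). At an unadjusted p under 0.05, 2 were lower, against 4.16% of all named genes. Gbx2, a homeobox factor of the naive state, was at 1.24, 1.54 and 2.51 on VP64 replicates 1, 3 and 4 and between 2.44 and 4.31 in the pool (-1.38 ± 0.50; adjusted p = 0.595). Lefty1, a Nodal inhibitor, was at 2.82, 2.87 and 3.53 and between 3.31 and 5.45 in the pool (-1.08 ± 0.47; adjusted p = 0.746). The Pou5f1 probe was saturated on 4 arrays, which limits what its difference can show, and Klf4 differed by 0.03 ± 0.33. Primed epiblast genes had a median of -0.84 over 7 with the 75th percentile, -0.595 without patch correction and -0.49 in the deposited table. The median was -0.04 with quantile normalization, beside 0.20 over all named genes, and -0.17 with normexp, beside 0.015. Fgf8, a growth factor of that state, was not well above background on any VP64 array and was at least 1.93-fold lower (adjusted p = 0.403), and Dnmt3b differed by 0.13 ± 0.34. Of 21 ribosomal protein genes, 19 had a negative difference (median -0.31) with the 75th percentile. With quantile normalization 15 of 21 had one (median -0.10, beside 0.20 over all named genes), and none had an unadjusted p under 0.05. All 21 probes were saturated on at least 1 array and 17 on at least 8, which limits what such differences can show. Rpl32 and Rpl10, the ribosomal genes with the smallest p, differed by -2.22 and -1.61 on slide 1. On slide 2 they differed by 0.08 and -0.09. The part of saturation in these differences was not tested. Mediator genes, the coactivator of VP16, had 11 of 14 negative (median -0.19), beside 5536 of 8518 named genes. With quantile normalization 5 of the 14 were negative, beside 33.2% of all probes tested. Their median was then 0.07, beside 0.20 over all named genes.

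Of 14 interferon and innate sensing genes tested, 1 had an unadjusted p under 0.05, Il33, and Isg15 differed by 0.21 ± 0.42 and Cxcl10 by 0.96 ± 0.74. Of 13 genes of the p53 response 1 did, Fas, a death receptor, at 1.76 ± 0.42 (adjusted p = 0.291), which passed the unaveraged fit. Fas was at -2.70 on VP64 replicate 2, inside the pooled range of -4.27 to -2.19. Both counts stand beside 2.57% of all named genes higher and 4.16% lower at that unadjusted p. None of the 12 stress response genes had an unadjusted p under 0.05. Of 10 genes of the two-cell-like state 4 did in the higher direction, against 2.57% of all named genes, led by Sp110, at 0.07, -0.20, 0.35 and 0.12 with VP64 and between -2.96 and -0.69 in the pool (1.76 ± 0.38; adjusted p = 0.237). Zscan4c, a defining gene of that state, differed by -0.56 ± 0.46.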

How the data were processed

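Single-colour Cy3 arrays (Agilent Feature Extraction 11.5.1.1, per the file headers) were analysed from the processed signal, an intensity that the authors deposited, background subtracted and spatially detrended per the file headers. The median signal and background, also intensity per the file headers, served for normexp. The deposited value table is log2 by its values, and was used as an alternative only. Probes were named through RefSeq accessions in a GRCm38.p6 gene table: 27656 of 55681 had 1 symbol.

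The log2 signal minus the array's 75th percentile was corrected by the local median shift in 21 by 21 spots. Spots whose local shift departed by over 1 log2 unit from that of the whole array, and spots marked non-uniform or as outliers were left out, and spots of a probe were averaged. Probes were tested if well above background on at least 4 arrays and measured on at least 3 VP64 arrays and 2 arrays of each other group. Least squares with the squeezed variances of limma 3.58.1 was run in each pairing, 2-sided, with slide as a term in the first pairing and removed per probe before averaging in the others. Each difference is from the pairing with the largest p. Values left out were not imputed. Replicate numbers were not taken to pair the samples, since 9 of 24 same-numbered pairs had a correlation over 0.1, among them all 4 between DEL and Delta (0.229 to 0.506).

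Named were Ptn (its tested probe measured on the most arrays), called genes, else the 5 with the smallest p in each direction, and for each list its called members or the 2 with the smallest p; other members named were chosen after their values were seen. Members and the 27 gene lists were chosen with earlier results of these data known. The method was tested on simulated data.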

Additional observations from a re-analysis of the deposited data

How the results depend on the processing

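The number of probes called (1) became 0 without patch correction, without a filter on low signal, in the deposited value table and on slide 1 alone. It became 5 with a window of 11 by 11 spots, 6 with a patch limit of 0.5, 4 with well above background on at least 8 arrays, with at least 2 VP64 arrays and with quantile normalization, 2 without the Delta group and 30 on slide 2 alone. The 16 arrays unaveraged gave 122 with slide and 270 with the replicate block, before asking for an unadjusted p under 0.05 in all 3 pairings. Leaving out 1 array gave 0 (VP64 replicate 1) to 4 (VP64 replicate 2), with 3 without EGFP replicate 2, VP64 replicate 4, DEL replicate 1 or DEL replicate 4 and 2 without Delta replicate 3. Ptn passed with the window of 11 (4.08, adjusted p = 0.0309), unaveraged (4.08, 0.00451), with the replicate block (4.06, 0.00603), with at least 8 arrays above background (4.09, 0.0363), and ranged from 3.69 to 4.79 when 1 array was left out, passing without VP64 replicate 2 (adjusted p = 0.0415) or DEL replicate 4 (adjusted p = 0.0143). Ptn was not tested with a patch limit of 0.5, normexp or slide 1 alone, where too few of its values were left. The count past all 3 groups (0) was 1 with the window of 11, patch limits of 0.5 and 1.5, at least 8 arrays, at least 2 VP64 arrays and slide 2 alone, 6 unaveraged, 25 with the replicate block, and 0 to 1 without 1 array. The count among the pooled groups (0) was 1 on slide 1 alone and 0 to 0 without 1 array. The unaveraged count that also asks for an unadjusted p under 0.05 in all 3 pairings (122) had alternatives chosen after seeing the data. It was 259 with the replicate block, 29 with normexp, 7 without patch correction, 76 with marked spots kept, 13 in the deposited table, 22 without DEL and 27 without Delta. Leaving out 1 array gave 8 (VP64 replicate 3) to 158 (EGFP replicate 4), with 12 without VP64 replicate 1, 80 without VP64 replicate 2, 69 without VP64 replicate 4 and 65 without DEL replicate 4. The replicate number marks slide and row, and 3 of 16 arrays correlated best with their own number. For named genes, 763 alternative values kept direction and side of the threshold, 5 were weaker, 67 stronger and 0 reversed. Only Il33 had passed the main test, so only Il33 could become weaker, and the 5 weaker values are those given for it above. For the other named genes, keeping the side of the threshold meant not passing again. The causes were not tested. Levels near the background limit what dim probes can show.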
